A study of Rattus norvegicus with 19 samples.

Results

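Parvalbumin, somatostatin, neuropeptide Y, vasoactive intestinal peptide, cholecystokinin, calbindin, calretinin, tachykinin and corticotropin-releasing hormone are the proteins by which cortical interneurons are usually told apart. Their 9 genes (Pvalb, Sst, Npy, Vip, Cck, Calb1, Calb2, Tac1 and Crh) were followed by symbol in rat somatosensory cortex. Each had 1 probe set on the array, so no choice between probe sets was needed, and they are 9 of the 14217 genes measured. The samples were 19 whole-tissue arrays from adult male Wistar rats that were sham operated or whose cortex received an agent in artificial cerebrospinal fluid. In set 1 (10 arrays, no replicates), DOC was deoxycholic acid at 2 mM, a bile acid that opens the blood-brain barrier, sampled at 7, 24 and 48 h. Albumin was the serum protein at 0.1 mM and TGF-β1 was the cytokine at 10 ng/ml, each sampled at 8, 24 and 48 h, and 1 sham was taken at 24 h. In set 2 (9 arrays, all at 24 h, from separate animals), 3 rats received albumin, 4 received albumin with blockers of TGF-β receptors, and 2 were sham operated. The blockers were an antibody to the type 2 receptor (50 µg/ml) and SB431542 (100 µM), which inhibits the type 1 receptor kinase. The labels name no transgene or deletion in any group. The sham in set 1 was taken at 24 h alone, so differences from sham at 7/8 h and 48 h also hold a difference in time.

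Most cortical inhibitory neurons release GABA and fall into classes marked by parvalbumin, somatostatin or vasoactive intestinal peptide. Parvalbumin, calbindin and calretinin are EF-hand proteins that bind calcium inside the cell. The peptides are made as precursors, cut and in some cases amidated in dense-core granules, released at high firing rates, and act on G-protein-coupled receptors. Cholecystokinin, calbindin, tachykinin and corticotropin-releasing hormone are also made by some excitatory cortical neurons, so their RNA in whole cortex is not from interneurons alone. Transcription of somatostatin by way of the cAMP response element is a textbook case of control by the factor CREB.

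The RefSeq promoter table (build GRCr8) held 5 of the 9 genes. Each window runs from 250 bases before the start site to 50 bases after it, 5′ to 3′ on the strand of the gene. For Pvalb, Tac1 and Vip the start site used lies inside the gene as bounded in the same build, downstream of its 5′ end. Their windows therefore lie wholly or almost wholly within the gene, and positions are counted from that start site. Shown are Pvalb, with the one difference between groups that passed the test among these genes, Npy and Tac1, whose levels spanned the widest ranges among the promoters held, and Sst, whose window holds the full cAMP response element. Capitals mark TGACGTCA, the full element, and its core, TGACG or CGTCA, searched on both strands. Every full element also holds the core in both directions, and these overlap.
Pvalb promoter, chr7:111666240-111666539, minus strand: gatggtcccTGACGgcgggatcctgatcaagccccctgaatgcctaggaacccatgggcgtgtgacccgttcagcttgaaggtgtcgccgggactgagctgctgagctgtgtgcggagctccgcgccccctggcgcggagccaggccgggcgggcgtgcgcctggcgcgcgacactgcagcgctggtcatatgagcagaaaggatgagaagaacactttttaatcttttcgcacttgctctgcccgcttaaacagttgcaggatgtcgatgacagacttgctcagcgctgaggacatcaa
Npy promoter, chr4:80211861-80212160, plus strand: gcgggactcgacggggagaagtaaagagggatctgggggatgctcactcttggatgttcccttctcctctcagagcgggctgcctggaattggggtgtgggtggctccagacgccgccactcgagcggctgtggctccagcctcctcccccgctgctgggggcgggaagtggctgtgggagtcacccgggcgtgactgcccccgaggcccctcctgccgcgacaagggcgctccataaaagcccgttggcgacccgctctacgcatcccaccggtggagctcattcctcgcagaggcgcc
Tac1 promoter, chr4:36645333-36645632, plus strand: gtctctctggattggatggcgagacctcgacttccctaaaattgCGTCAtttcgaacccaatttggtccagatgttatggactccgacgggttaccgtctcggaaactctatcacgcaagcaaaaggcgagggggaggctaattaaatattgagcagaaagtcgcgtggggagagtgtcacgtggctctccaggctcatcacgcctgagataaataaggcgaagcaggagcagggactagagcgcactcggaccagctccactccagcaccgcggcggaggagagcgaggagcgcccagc
Sst promoter, chr11:90461296-90461595, plus strand: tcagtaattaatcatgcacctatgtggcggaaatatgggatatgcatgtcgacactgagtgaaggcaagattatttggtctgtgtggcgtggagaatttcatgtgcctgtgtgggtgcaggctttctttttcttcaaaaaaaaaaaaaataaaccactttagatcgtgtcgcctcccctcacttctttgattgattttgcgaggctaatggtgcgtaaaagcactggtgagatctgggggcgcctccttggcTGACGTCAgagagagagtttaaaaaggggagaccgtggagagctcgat
The full element stood in Sst at base 3 after the start site as RefSeq places it, and in none of the other 4 windows. It is in 1.83% of all 33469 promoters of the table. The core alone was found in Pvalb at base −241, in Tac1 at base −206 and in Vip at base −97, and there was no match in the Npy window. It is in 21.2% of all promoters of this length, so a match is common. TATAAA, the letters of a TATA box, occurred in the Vip window only (3 times, 8.8% of all promoters). The Npy window had 67.7% G and C and the Sst window 45.7%, against a median of 51.7% over all promoters.

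The deposited values are log2 signals made by GCRMA, and a difference of 1 is a 2-fold difference in signal. The sets appear to have been normalised apart (array medians of 5.09 to 5.17 in set 1 and 6.05 to 6.18 in set 2), so levels were compared within a set and never between probe sets. Cortical excitatory neuron markers were present on every array, with a summed log2 signal of 13.51 to 14.52 in set 1 and 14.44 to 15.39 in set 2. Striatal markers stood apart on the TGF-β1 array at 8 h, with Drd2 at 4.62 there and 1.90 to 2.44 on the other 9 arrays of set 1, Adora2a at 5.16 and 2.53 to 3.60, and Rgs9 at 6.63 and 3.31 to 4.54. In set 2 their summed signal was highest on replicate 2 of the blockers, at 11.97 there and 10.41 to 11.76 on the other 8 arrays. Rgs9 had 5.90 there and 3.36 to 4.52 on the others, Ppp1r1b 10.97 and 9.07 to 10.10, and Adora2a 3.09 and 2.31 to 2.55. Pde10a lay within the range of the others (10.77 and 9.40 to 11.12), as did Gpr6 (2.27 and 2.26 to 2.83). Drd2 stayed between 1.95 and 2.08 on all 9. A gene was tested where its signal was above 4 on at least 2 arrays of its set. That left 10018 genes and 9 of the 9 members in set 1, and 10329 genes and 8 of the 9 in set 2, where Calb2 lay between 2.82 and 3.19 on all 9 arrays. Albumin replicate 2 of set 2 stood apart from the other arrays. Its median correlation with them was 0.981, the lowest of its set. On it 30.2% of the genes tested lay above every other array of the set and 31.5% below every other array. The numbers of arrays limit the precision of every value.

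In all, 87 tests were made on these genes with limma over 10 comparisons, and 1 passed an adjusted p of 0.05. That was Pvalb, which fell at 48 h against 7/8 h in set 1. For albumin against sham in set 2, 0 of 8 members passed, beside 1.33% of all genes tested, and 2 of 8 (Pvalb and Calb1) had an unadjusted p under 0.05, beside 21.4% of all genes. For the blockers against albumin, 0 of 8 passed beside 0.0194% of all genes, and the same number, 2 of 8, had an unadjusted p under 0.05, beside 16.6%. For the blockers against sham, 0 of 8 passed beside 0% of all genes, 0 of 8 had an unadjusted p under 0.05, and 444 of 10329 genes did (4.3%). In set 1, 0 of 9 members passed for DOC, for albumin or for TGF-β1 against sham, beside 0.469%, 0.369% and 0% of all genes, and 1, 2 and 1 members had an unadjusted p under 0.05, beside 18.7%, 11.9% and 7.49% of all genes (750 of 10018 for TGF-β1). Over time, 0 of 9 members passed at 24 h against 7/8 h (0.799% of all genes), 1 of 9 at 48 h against 7/8 h (5.09%) and 0 of 9 at 48 h against 24 h (1.41%). Their unadjusted counts were 5, 5 and 0 of 9, beside 14.1%, 20.7% and 16.3% of all genes. The 3 agents differed for 0 of 9 members (0.00998% of all genes), with 1 (Sst) at an unadjusted p under 0.05, beside 14.6%. With 0 or 1 of 8 or 9 members passing, the counts that passed were near the backgrounds.

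**Figure D1:**
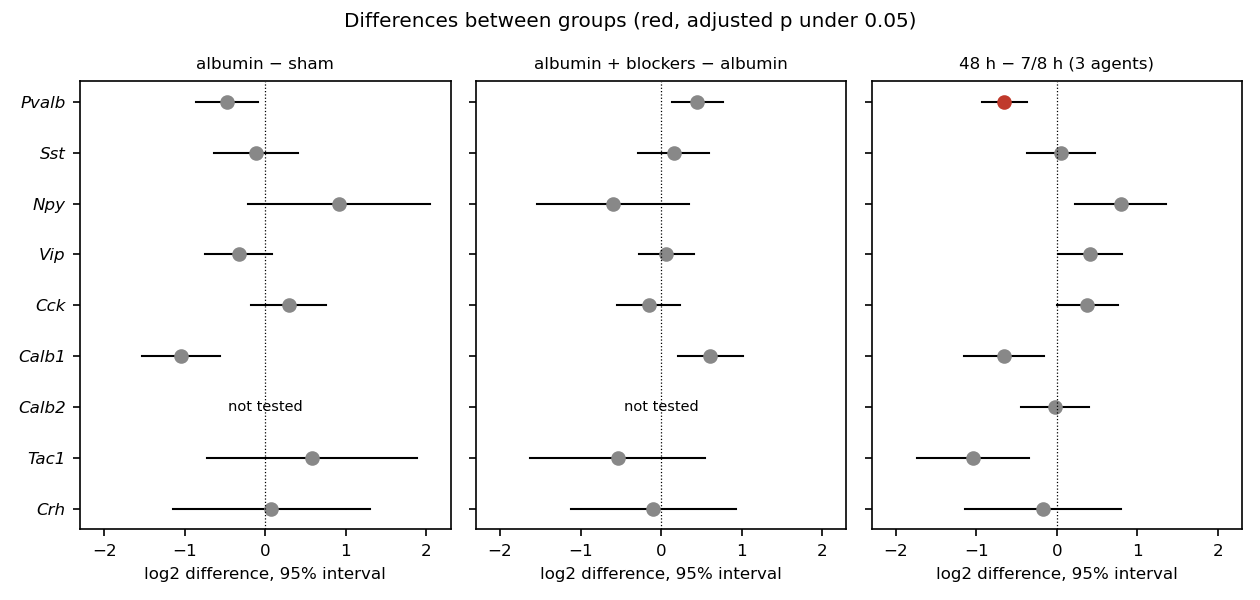
Log2 differences between groups for the 9 genes (points) with 95% confidence intervals from limma (bars), for albumin minus sham and albumin with blockers minus albumin in set 2 and for 48 h minus 7/8 h over the 3 agents in set 1. The red point is Pvalb at 48 h (−0.65), the 1 test that passed; Calb1 with albumin (−1.05) lies farthest below 0 in set 2, and the intervals of Npy, Tac1 and Crh there are the widest.

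Parvalbumin, the calcium buffer of fast-spiking basket and chandelier cells, declined over time in set 1. Pvalb had 10.51, 10.10 and 9.91 with DOC at 7, 24 and 48 h, 10.61, 10.14 and 10.04 with albumin at 8, 24 and 48 h, and 10.85, 10.50 and 10.05 with TGF-β1 at 8, 24 and 48 h, against 10.54 in the sham at 24 h. With each of the 3 agents the order was the same, highest at the early time and lowest at 48 h, and the 3 arrays at 48 h lay below all 3 early ones. Pvalb averaged 10.00 ± 0.08 at 48 h and 10.66 ± 0.17 at 7/8 h (SD, n = 3 agents each), and fell by 0.65 ± 0.12 (SE) with an adjusted p of 0.0276 (limma). The call did not survive the loss of 1 array in 7 of 9 cases, with an adjusted p up to 0.136, while the difference stayed between −0.71 and −0.57. It held without DOC at 24 h and without albumin at 24 h, and the highest of these p was that without the TGF-β1 array at 8 h (−0.63). At 24 h against 7/8 h the difference was −0.41 ± 0.12 (adjusted p = 0.201). The residual of an additive model of agent and time served as the spread in set 1, where no condition was repeated. In whole tissue, fewer cells of a type and less RNA per cell cannot be told apart.

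Markers of other cells moved at the same time. At 48 h against 7/8 h, 7 of 8 microglia and macrophage markers rose (median 1.88 over the 8), with a summed log2 signal of 11.40 to 11.87 at 48 h and 9.48 to 9.97 at 7/8 h. Of 7 reactive astrocyte markers, 5 rose (median 2.12), and their sum was 14.56 to 14.75 at 48 h and 11.64 to 13.16 at 7/8 h. Of 10 pan-neuronal markers 0 passed (median −0.14, 3 at an unadjusted p under 0.05), with a sum of 15.71 to 15.91 at 48 h and 15.91 to 15.98 at 7/8 h. Of 10 cortical excitatory neuron markers 0 passed (median −0.05, 2 at an unadjusted p under 0.05). Among 15 genes of interneuron identity and GABA synthesis 1 fell (median 0.05, 8 above 0 and 7 below). In that list 5 had an unadjusted p under 0.05. Of 9 meninges markers 4 rose (median 1.49), both red cell markers fell (median −1.38), and 4 of 4 striatal markers tested lay below 0 with 0 passing (median −0.94, 2 at an unadjusted p under 0.05). Their part in the Pvalb result was not tested.

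**Figure D2:**
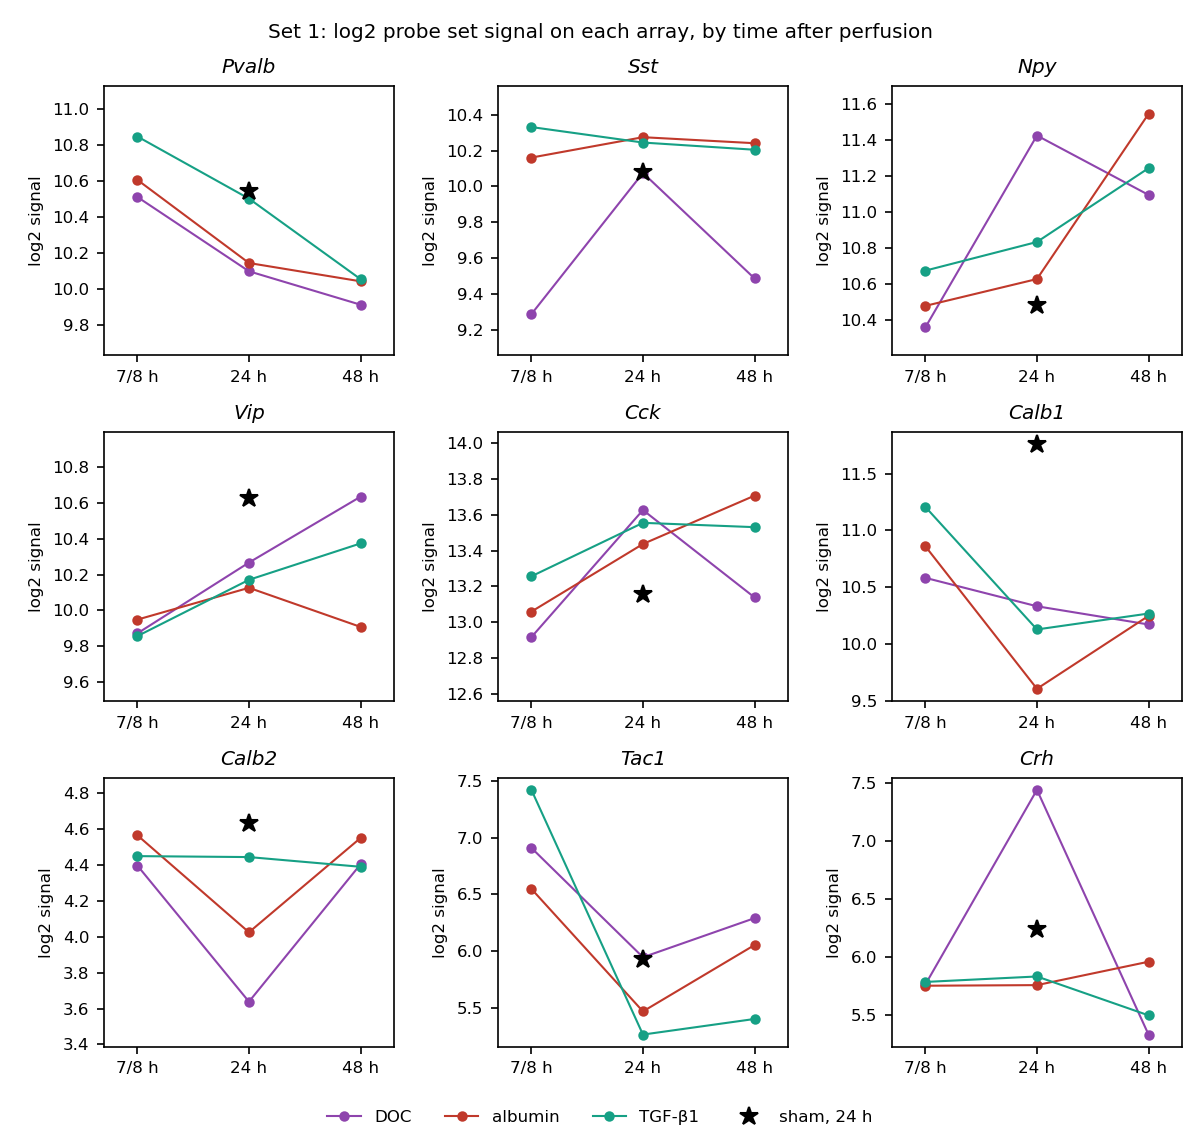
Log2 signal of the 9 genes on the 10 arrays of set 1 by time after perfusion, with 1 line per agent and a star for the sham taken at 24 h. Pvalb declines along all 3 lines (9.91 to 10.05 at 48 h), Npy is higher at 48 h than at 7/8 h on all 3, Calb1 lies below the sham on all 9 treated arrays, and Crh peaks on 1 array, DOC at 24 h (7.44).

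In set 2 Pvalb had 11.29, 10.97 and 11.50 with albumin, 11.51, 11.74, 11.71 and 11.85 with albumin and the blockers, and 11.68 and 11.77 in the shams. All 3 albumin arrays lay below both shams and below all 4 arrays with the blockers, though replicate 3 with albumin and replicate 1 with the blockers nearly met. The difference of albumin from sham was −0.48 ± 0.17 (SE, adjusted p = 0.162). For the blockers against albumin it was 0.45 ± 0.14 (adjusted p = 0.200), and for the blockers against sham −0.03 ± 0.16. These comparisons share arrays. Without albumin replicate 2, the lowest array, the first 2 differences were −0.33 (adjusted p = 0.212) and 0.31 (adjusted p = 0.318). No comparison of Pvalb in set 2 passed.

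Calbindin, a fast calcium buffer of dendrite-targeting interneurons and of upper-layer pyramidal cells, had the lowest adjusted p of the 9 genes in set 2 without passing. Calb1 had 10.99, 11.10 and 11.18 with albumin, 11.74, 11.26, 11.78 and 12.03 with albumin and the blockers, and 12.01 and 12.27 in the shams. The albumin arrays lay close together and below all 6 others, and 3 of the 4 arrays with the blockers lay between the albumin arrays and the shams. Albumin differed from sham by −1.05 ± 0.21 (SE, 95% interval −1.53 to −0.57), with an unadjusted p that ranked 175 of 10329 and an adjusted p of 0.0564. The blockers differed from albumin by 0.61 ± 0.17 (adjusted p = 0.189) and from sham by −0.44 ± 0.20 (adjusted p = 0.9999). Without replicate 2 of the blockers, the array of set 2 with the highest summed striatal signal, these differences were 0.76 (adjusted p = 0.151) and −0.29. The part of striatal tissue in them was not tested. The albumin difference passed in 1 of 9 alternatives of other kinds, with all 19 arrays and a term for the set (−1.37, adjusted p = 0.0146). That fit also passed more of all genes than the main one. With the arrays of the 2 groups only, the adjusted p was 0.109. With 1 array left out it passed in 1 of 9 cases, without replicate 4 of the blockers (−1.05, adjusted p = 0.0468). Without albumin replicate 2 the difference was −1.05 (adjusted p = 0.0778). It was −1.18 without sham replicate 1 and −0.92 without sham replicate 2.

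In set 1 the sham had the highest Calb1 signal of the 10 arrays. Calb1 had 10.58, 10.33 and 10.17 with DOC at 7, 24 and 48 h, 10.86, 9.61 and 10.25 with albumin at 8, 24 and 48 h, and 11.21, 10.13 and 10.27 with TGF-β1 at 8, 24 and 48 h, against 11.76 in the sham. All 9 treated arrays were lower, by 0.55 at the least (TGF-β1 at 8 h) and 2.15 at the most (albumin at 24 h). Over the 3 times the difference from sham was −1.40 ± 0.30 for DOC (SE, adjusted p = 0.0983), −1.52 ± 0.30 for albumin (adjusted p = 0.100) and −1.23 ± 0.30 for TGF-β1 (adjusted p = 0.304). They share the 1 sham array, whose own spread is unknown. That array also had the highest summed log2 signal of cortical excitatory neuron markers in set 1, at 14.52 against 13.51 to 14.44 on the treated arrays. Its sum of pan-neuronal markers, 15.97, lay within the range of the treated arrays (15.71 to 15.98). The part of these in the Calb1 differences was not tested. Within the treated arrays Calb1 was lower at 24 h than at 7/8 h with each agent (−0.86 ± 0.21, adjusted p = 0.150). Without the TGF-β1 array at 8 h, the one with raised striatal markers, the difference was −0.74 (adjusted p = 0.374). The part of striatal tissue was not tested. At 48 h the 3 agents lay close together, at 10.17 to 10.27.

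Beside the albumin differences of Pvalb and Calb1 in set 2, other tissue markers differed between the same arrays. Of 11 meninges markers tested, 11 were below sham with albumin (median −2.40) and 3 fell (Ptgds, Slc13a4 and Ogn). Their summed log2 signal was 11.84 to 12.76 with albumin, 12.99 to 14.22 with the blockers and 14.34 to 14.90 in the shams, without overlap. Of 7 reactive astrocyte markers 2 rose with albumin, with sums of 15.36 to 15.69 with albumin, 14.37 to 15.16 with the blockers and 13.67 to 14.44 in the shams. The sums of 10 pan-neuronal markers were 16.55 to 16.79 with albumin, 16.80 to 16.82 with the blockers and 16.81 to 16.82 in the shams. Their part in these results was not tested.

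Calretinin, the buffer of many vertical, disinhibitory interneurons, was near the filter. Calb2 had 4.40, 3.64 and 4.40 with DOC at 7, 24 and 48 h, 4.57, 4.03 and 4.55 with albumin at 8, 24 and 48 h, and 4.45, 4.44 and 4.39 with TGF-β1 at 8, 24 and 48 h, against 4.64 in the sham. All 9 treated arrays were below the sham, and with DOC and albumin the 24 h array was the low one. No comparison passed, the nearest by unadjusted p being 24 h against 7/8 h (−0.43 ± 0.18, SE, adjusted p = 0.336). In set 2 it was not tested.

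**Figure D3:**
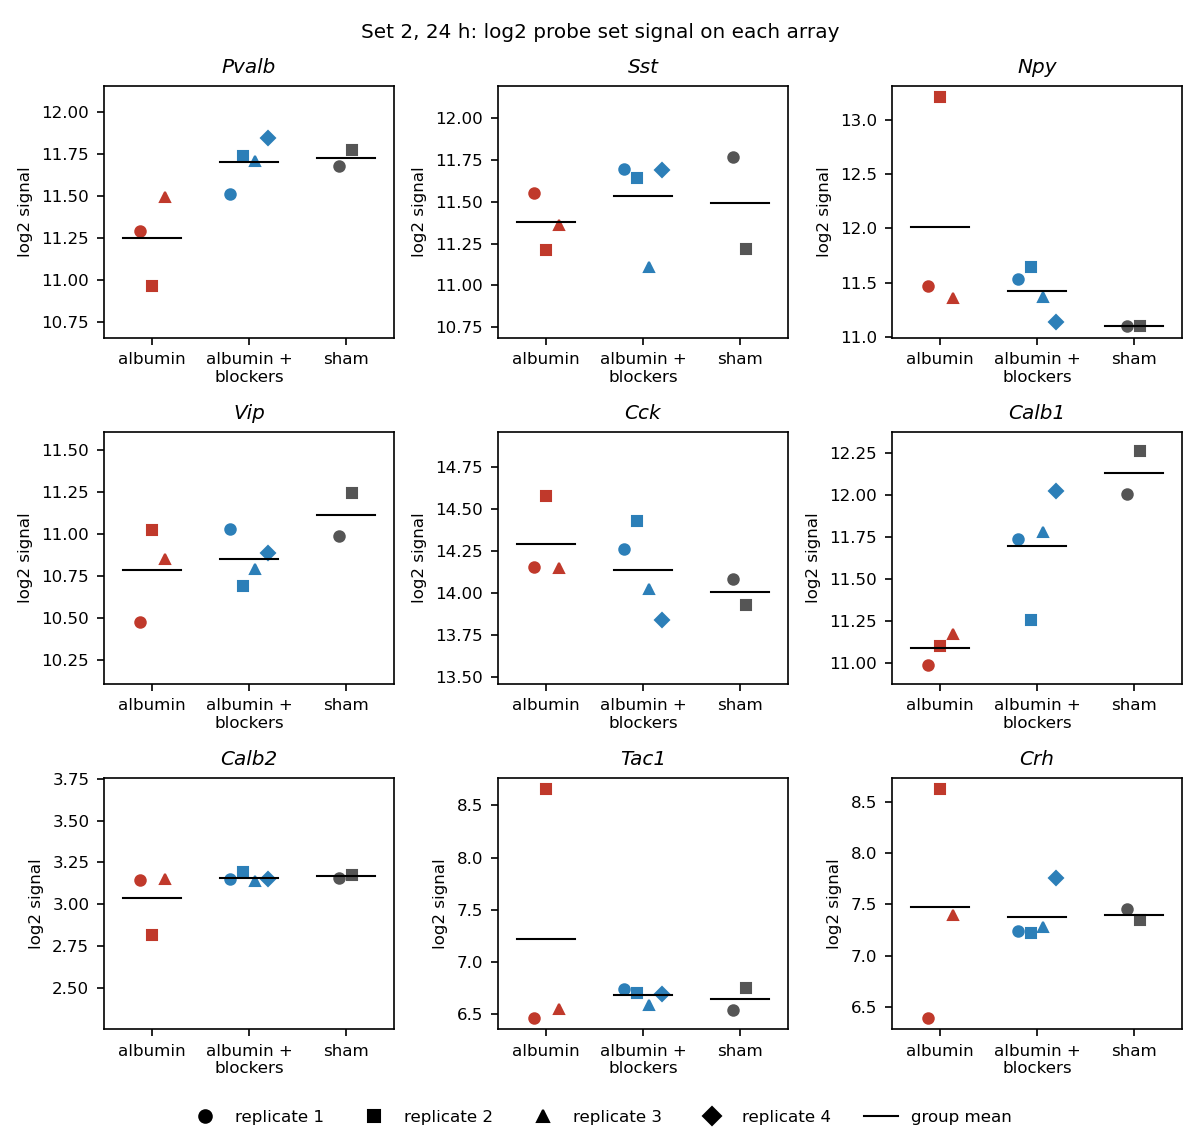
Log2 signal of the 9 genes on the 9 arrays of set 2 at 24 h, with symbols for replicate numbers and bars for group means (albumin, albumin with blockers, sham). Calb1 with albumin (10.99 to 11.18) lies below all other arrays, and albumin replicate 2 (squares) stands far above the rest for Npy (13.21), Tac1 (8.65) and Crh (8.63).

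Somatostatin, the peptide of Martinotti cells, had its lowest signals with DOC in set 1, in a difference that did not pass. Sst had 9.29, 10.08 and 9.49 with DOC at 7, 24 and 48 h, 10.16, 10.27 and 10.24 with albumin at 8, 24 and 48 h, and 10.33, 10.24 and 10.20 with TGF-β1 at 8, 24 and 48 h, against 10.08 in the sham. The DOC arrays were the 3 lowest of the set, with the 24 h array level with the sham, and albumin and TGF-β1 arrays all lay above it. The difference among the agents had an adjusted p of 0.274 (limma's F test, unadjusted p = 0.0148). In set 2 the groups overlapped, at 11.55, 11.21 and 11.36 with albumin, 11.69, 11.64, 11.11 and 11.69 with albumin and the blockers, and 11.77 and 11.22 in the shams. The 2 shams lay farther apart than any pair of group means of Sst there. Albumin differed from sham by −0.12 ± 0.23 (SE, 95% interval −0.64 to 0.41).

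Neuropeptide Y, which is made by many somatostatin cells and by neurogliaform cells and damps transmitter release, had its higher signals late in set 1 without passing the test. Npy had 10.36, 11.43 and 11.10 with DOC at 7, 24 and 48 h, 10.48, 10.63 and 11.55 with albumin at 8, 24 and 48 h, and 10.67, 10.83 and 11.25 with TGF-β1 at 8, 24 and 48 h, against 10.48 in the sham. All 3 arrays at 48 h lay above all 3 early arrays and the sham, and DOC alone had its peak at 24 h. Npy averaged 11.30 ± 0.23 at 48 h and 10.50 ± 0.16 at 7/8 h (SD, n = 3 agents each), a difference of 0.79 ± 0.24 (SE) with an adjusted p of 0.121. With 1 array left out it passed in 1 of 9 cases, without the DOC array at 24 h (0.79, adjusted p = 0.0346), with an adjusted p up to 0.371. Under alternatives of other kinds it passed in 0 of 6.

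In set 2 Npy had 11.47, 13.21 and 11.36 with albumin, 11.54, 11.64, 11.36 and 11.13 with albumin and the blockers, and 11.10 and 11.10 in the shams. All 7 treated arrays lay above both shams, by 0.03 at the least, and albumin replicate 2 stood far above the rest. Albumin differed from sham by 0.91 ± 0.49 (SE, adjusted p = 0.312), and by 0.32 without replicate 2 (adjusted p = 0.330). The blockers differed from albumin by −0.59 ± 0.41 (adjusted p = 0.457), and by 0.0023 without that array. The blockers differed from sham by 0.32 ± 0.47 (adjusted p = 0.9999).

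Vasoactive intestinal peptide marks interneurons that mainly inhibit other interneurons. Vip had 9.87, 10.27 and 10.63 with DOC at 7, 24 and 48 h, 9.95, 10.13 and 9.91 with albumin at 8, 24 and 48 h, and 9.86, 10.17 and 10.37 with TGF-β1 at 8, 24 and 48 h, against 10.63 in the sham. Of the 9 treated arrays, 8 lay below the sham and DOC at 48 h was level with it. The difference from sham was −0.63 ± 0.24 for albumin (SE, adjusted p = 0.359). Over time no difference passed, with 0.41 ± 0.17 for 48 h against 7/8 h (adjusted p = 0.222). In set 2 Vip had 10.48, 11.02 and 10.85 with albumin, 11.03, 10.69, 10.79 and 10.89 with albumin and the blockers, and 10.99 and 11.24 in the shams. The groups overlapped, and albumin differed from sham by −0.33 ± 0.18 (adjusted p = 0.317).

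Cholecystokinin is made by a class of basket cells that carry cannabinoid receptors and by many pyramidal cells. Cck had 12.92, 13.63 and 13.14 with DOC at 7, 24 and 48 h, 13.06, 13.44 and 13.71 with albumin at 8, 24 and 48 h, and 13.26, 13.55 and 13.53 with TGF-β1 at 8, 24 and 48 h, against 13.16 in the sham. The 3 arrays at 24 h lay above all 3 early arrays (0.46 ± 0.16, SE, adjusted p = 0.273), and at 48 h DOC alone lay within the early range (0.38 ± 0.16, adjusted p = 0.242). In set 2 Cck had 14.15, 14.58 and 14.15 with albumin, 14.26, 14.43, 14.02 and 13.84 with albumin and the blockers, and 14.08 and 13.93 in the shams. All 3 albumin arrays lay above both shams, with replicate 2 the highest of the set, and the arrays with the blockers spread across both groups. Albumin differed from sham by 0.29 ± 0.20 (adjusted p = 0.423), and by 0.15 without replicate 2.

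Tac1, which encodes substance P and neurokinin A, was highest at the early time in set 1. It had 6.91, 5.95 and 6.29 with DOC at 7, 24 and 48 h, 6.55, 5.47 and 6.06 with albumin at 8, 24 and 48 h, and 7.42, 5.27 and 5.41 with TGF-β1 at 8, 24 and 48 h, against 5.94 in the sham. The 3 early arrays were the 3 highest of the set, and with each agent the 24 h array was the lowest. Tac1 averaged 5.56 ± 0.35 at 24 h and 6.96 ± 0.44 at 7/8 h (SD, n = 3 agents each), a difference of −1.40 ± 0.29 (SE) with an adjusted p of 0.107. At 48 h against 7/8 h it was −1.04 ± 0.29 (adjusted p = 0.100). The highest array, TGF-β1 at 8 h, was the one with raised striatal markers, and Tac1 is also made by striatal projection neurons. The summed signal of 7 striatal markers was 10.93 on it and 9.63 and 10.06 on the other 2 early arrays, 9.82 to 10.17 at 24 h and 8.66 to 9.82 at 48 h, with 9.95 in the sham. Without that array the differences were −0.96 at 24 h (adjusted p = 0.138) and −0.61 at 48 h (adjusted p = 0.162). The part of striatal tissue was not tested further. Against the sham the 3 agents differed by 0.45 (DOC), 0.09 (albumin) and 0.10 (TGF-β1), each ± 0.42, and counting the sham as a 24 h array turned all 3 below 0 (−0.14, −0.49 and −0.49).

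In set 2 Tac1 had 6.47, 8.65 and 6.55 with albumin, 6.75, 6.70, 6.59 and 6.70 with albumin and the blockers, and 6.55 and 6.75 in the shams. The groups overlapped apart from albumin replicate 2, which stood far above the other 8 arrays. Albumin differed from sham by 0.58 ± 0.57 (SE, adjusted p = 0.560), and by −0.14 without it (adjusted p = 0.499).

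Crh, the stress peptide that is made in cortex mainly by a share of the interneurons, had its high values on single arrays. In set 1 it had 5.76, 7.44 and 5.33 with DOC at 7, 24 and 48 h, 5.75, 5.76 and 5.96 with albumin at 8, 24 and 48 h, and 5.78, 5.83 and 5.49 with TGF-β1 at 8, 24 and 48 h, against 6.24 in the sham. DOC at 24 h lay 1.20 above the sham, and the other 8 treated arrays lay below it. In set 2 Crh had 6.39, 8.63 and 7.39 with albumin, 7.24, 7.22, 7.28 and 7.76 with albumin and the blockers, and 7.45 and 7.34 in the shams. The albumin group held both the highest and the lowest array. Albumin differed from sham by 0.07 ± 0.53 (SE, adjusted p = 0.948), and by −0.51 without replicate 2 (adjusted p = 0.423).

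On albumin replicate 2, then, 4 of the 8 members tested were higher than on every other array of set 2 (Npy, Cck, Tac1 and Crh), beside 30.2% of all genes, and 1 of 8 (Pvalb) lay below every other array, beside 31.5%. At least 1 above the median of the other 8 arrays were 3 of 8 members (Npy, Tac1 and Crh), beside 6.06% of all genes. Other lists moved both ways on that array. Of 9 other neuropeptide genes tested, 5 lay above every other array and 2 (Grp and Nxph1) below every other. Of 12 processing and granule genes 4 lay above and 6 below (Pcsk2, Pcsk1n, Scg3, Scg5, Cadps and Cadps2), and of 11 receptor and binding-protein genes 3 lay above and 5 below.

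The genes named next were chosen after their values were seen. Gal (galanin) had 10.03 on that array and 4.52 to 7.48 on the other 8, Adcyap1 (the peptide PACAP) 11.01 and 7.84 to 8.92, and Grp (gastrin-releasing peptide) 7.13 and 7.81 to 8.57. The granule protein Vgf had 13.93 there and 10.52 to 11.76 elsewhere, and Scg2, another, was 3.05 above the median of the other arrays, while Cadps2, which primes dense-core granules for release, had 9.85 and 11.05 to 11.67. Crhbp, which binds corticotropin-releasing hormone, had 10.78 there and 8.27 to 9.41 elsewhere, and the somatostatin receptor Sstr4 5.65 and 3.80 to 4.00. The neurokinin receptor Tacr3 was low, at 3.19 against 6.68 to 7.76, as were Cckbr at 6.10 against 7.65 to 8.08 and Npy5r at 6.24 against 6.90 to 7.88.

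Values of other lists on this array stand beside these. The activity-regulated genes Bdnf and Inhba had 10.80 and 13.90 there, against 7.71 to 8.74 and 7.80 to 9.42 on the other 8 arrays. The summed signal of 12 activity genes was 13.76, 15.56 and 15.42 on the 3 albumin arrays, 13.93 to 14.15 with the blockers and 14.11 to 14.16 in the shams. Of the 12, 4 lay above every other array on replicate 2 and 1, Homer1, below every other. Thalamus markers summed to 12.22 on replicate 2 and to 10.48 and 10.77 on the other 2 albumin arrays, 10.52 to 11.14 with the blockers and 10.49 to 10.54 in the shams. Of these 5 markers Prkcd (10.54) and Slc17a6 (11.08) lay above every other array, Tcf7l2 lay below every other (7.29 against 7.50 to 8.28), and Lef1 and Rora lay within the range of the others. Cortical excitatory neuron markers summed to 14.44 on replicate 2, the lowest of the set, and to 15.00 to 15.39 on the other 8 arrays. Of 11 such markers 7 lay below every other array and 1, Emx1, above, and the farthest down was Rorb, a marker of layer 4 neurons, at 2.92 against 6.68 to 8.09. The part of these in the peptide values was not tested.

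**Figure D4:**
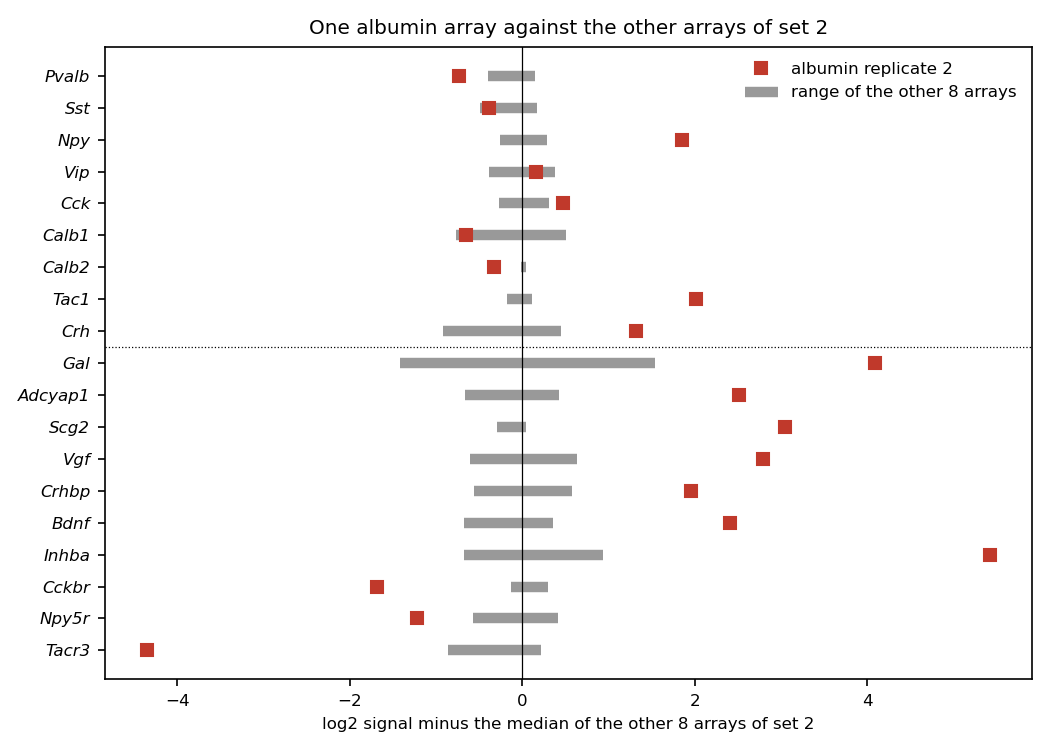
Log2 signal on albumin replicate 2 of set 2 (squares) minus the median of the other 8 arrays, with the range of those 8 as grey bars, for the 9 genes above the dotted line and for 10 peptide, granule, activity and receptor genes below it that were chosen after their values were seen. Npy, Tac1 and Crh lie 1.85, 2.01 and 1.32 above the median, Inhba 5.42 above it, and Tacr3 differs from it by −4.35.

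The genes that make, store and receive the peptides were read from lists chosen with earlier results of these data known. Of 14 peptide receptor and binding-protein genes on the array, 11 were tested in each set, and 1 passed in 1 comparison. Tacr3, the receptor of neurokinin B, fell at 48 h against 7/8 h in set 1, with 5.27, 6.38 and 5.94 at 48 h (DOC, albumin, TGF-β1) and 7.10, 7.42 and 7.05 at the early time (−1.32 ± 0.23, SE, adjusted p = 0.0243). The 48 h arrays lay below all 3 early ones. The sham at 24 h had 7.33. The call passed in 5 of 9 cases with 1 array left out. There 1 of 11 passed, beside 5.09% of all genes, and the list's median was −0.01, against 0.01 over all genes tested. In set 2, 0 of 11 passed in limma in any of the 3 comparisons. An unadjusted p under 0.05 was had by 2, 1 and 0, beside 21.4%, 16.6% and 4.3% of all genes. The smallest p was that of the PACAP receptor Adcyap1r1 for albumin against sham (−0.60 ± 0.17, adjusted p = 0.110, and −0.52, adjusted p = 0.168, without albumin replicate 2).

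Of 12 processing and granule genes, 1 passed. Cadps2 fell at 48 h against 7/8 h, with 10.09, 9.71 and 10.12 at 48 h and 10.85, 10.71 and 10.65 at the early time (−0.77 ± 0.16, SE, adjusted p = 0.0438). Its 48 h arrays lay below the early ones and below the sham (11.11). In that comparison 1 of 12 passed, beside 5.09% of all genes. Of the 12, 10 lay below 0, beside 4832 of 10018 genes, with a median of −0.13. The call passed in 2 of 9 cases with 1 array left out. In set 2, 0 of 12 passed in limma (3, 2 and 0 at an unadjusted p under 0.05, beside 21.4%, 16.6% and 4.3% of all genes). Scg3, a granule protein, had the smallest p for albumin against sham (−0.51 ± 0.16, adjusted p = 0.126, and −0.42, adjusted p = 0.188, without albumin replicate 2).

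Among other cortical neuropeptides, 1 of 9 passed for albumin against sham in set 2, beside 1.33% of all genes. For 24 h against 7/8 h in set 1, 1 of 10 passed, beside 0.799%. Both were Pnoc, the precursor of nociceptin, which is made by a group of interneurons. Pnoc had 9.12, 9.85 and 9.22 with albumin, 8.47, 8.58, 8.87 and 7.81 with albumin and the blockers, and 7.59 and 7.77 in the shams. The 3 groups did not overlap. Pnoc rose with albumin by 1.71 ± 0.32 (SE, adjusted p = 0.0490), and by 1.49 without albumin replicate 2 (adjusted p = 0.0663). The blockers differed from albumin by −0.96 ± 0.27 (adjusted p = 0.181). In set 1 Pnoc had 8.13, 7.74 and 7.91 at 24 h (DOC, albumin, TGF-β1) and 6.54, 6.84 and 6.72 at the early time, with 6.44 in the sham, and rose by 1.22 ± 0.17 (adjusted p = 0.0387). All 3 arrays at 24 h lay above all early ones. The set 1 call passed in 2 of 9 cases in which 1 array was left out, and the set 2 call in 1 of 9. Under the alternatives of other kinds the set 2 call passed in 4 of 9, with differences of 1.59 to 1.71. It was lost with the replicate block, among others (1.70, adjusted p = 0.0665).

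Of the genes that define interneurons or make GABA, 0 of 16 passed in set 2 in limma. In the 3 comparisons 3, 3 and 0 had an unadjusted p under 0.05, beside 21.4%, 16.6% and 4.3% of all genes. The list's median was −0.07 for albumin against sham and 0.16 for the blockers against albumin. The GABA-making enzyme Gad1 had 13.41, 13.87 and 13.33 with albumin, 13.09 to 13.38 with the blockers, and 13.22 and 13.22 in the shams. The smallest p among them were those of Nr2f2, a transcription factor of caudally derived interneurons, and Kcnc2, a potassium channel of fast-spiking cells, for albumin against sham (−0.64 ± 0.21 for each, adjusted p = 0.138 for each). Without albumin replicate 2 they were −0.51 (adjusted p = 0.213) for Nr2f2 and −0.43 (adjusted p = 0.125) for Kcnc2. In set 1, 1 of 15 passed, at 48 h against 7/8 h, beside 5.09% of all genes. Lamp5, a marker of neurogliaform cells that excitatory neurons also express, had 11.07, 11.42 and 11.46 at 48 h and 12.32, 12.17 and 12.22 at the early time, and fell by 0.92 ± 0.16 (adjusted p = 0.0243). The sham had 12.50, above all 9 treated arrays, and the call passed in 5 of 9 cases with 1 array left out. Among 12 activity genes 1 passed in that comparison, beside 5.09% of all genes. It was Crem, a transcription factor that binds the cAMP response element. Crem fell by 0.85 ± 0.16 (adjusted p = 0.0334, past in 2 of 9 such cases). All 12 activity genes lay below 0 there (median −0.87), beside 4832 of 10018 genes. Of them 6 had an unadjusted p under 0.05, beside 20.7% of all genes.

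Of 15 other neuronal calcium-binding genes, 1 passed, for albumin against sham in set 2, beside 1.33% of all genes tested. Kcnip1, a calcium sensor that joins A-type potassium channels and is found in interneurons, had 9.12, 8.81 and 9.07 with albumin, 9.72, 9.69, 9.57 and 9.52 with albumin and the blockers, and 9.64 and 10.12 in the shams. All albumin arrays lay below the 6 others, and Kcnip1 fell with albumin by 0.88 ± 0.16 (SE, adjusted p = 0.0488). Without albumin replicate 2 the difference was −0.78 (adjusted p = 0.0652), and in 0 of 9 cases with 1 array left out did the call pass. It was also lost with the replicate block (−0.87, adjusted p = 0.135), and with the median of its probe sets the difference was −0.37 (adjusted p = 0.140). The blockers differed from albumin by 0.63 ± 0.14 (adjusted p = 0.121). As a list, 14 of 15 lay below 0 for albumin against sham (median −0.31, against 0.02 over all genes tested) and 14 of 15 above 0 for the blockers against albumin (median 0.28, against −0.003), 2 comparisons that share the albumin arrays. On albumin replicate 2, 11 of the 15 lay below every other array, beside 31.5% of all genes tested. Without it 11 of 15 lay below 0 for albumin against sham (median −0.20) and 12 of 15 above 0 for the blockers against albumin (median 0.16), with 0 passing and 3 at an unadjusted p under 0.05 in each. In set 1, 15 of 15 lay below 0 for DOC against sham (median −0.37), 13 of 15 for albumin (−0.22) and 12 of 15 for TGF-β1 (−0.21). Of all 10018 genes tested, 5293, 5204 and 4749 lay below 0. Against the same sham 8 of 10 cortical excitatory neuron markers lay below 0 for each agent (medians −0.54, −0.36 and −0.24). Of 10 pan-neuronal markers 8, 6 and 7 did (medians −0.08, −0.08 and −0.07). In limma 0 of 15 passed in each. An unadjusted p under 0.05 was had by 5, 3 and 1, beside 18.7%, 11.9% and 7.49% of all genes. At 48 h against 7/8 h 14 of 15 lay below 0 (median −0.32), beside 4832 of 10018 genes. There 0 passed, and 6 had an unadjusted p under 0.05, beside 20.7% of all genes.

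The 9 genes did not vary as 1 group. Over the 19 arrays, each value taken relative to the mean of its set, Npy and Cck went together (Pearson's r = 0.79, and 0.80 without albumin replicate 2), as did Pvalb and Calb1 (0.69 and 0.68). Pvalb ran opposite to Npy (−0.76 and −0.68) and to Cck (−0.57 and −0.46). Sst had its highest r with Cck (0.39, and 0.55 without albumin replicate 2). Some pairs changed sign without albumin replicate 2. Npy and Tac1 had 0.38 with it and −0.33 without it, and Pvalb and Tac1 −0.02 with it and 0.52 without it. These are descriptions over arrays that share normalisation and treatments, among 36 pairs.

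**Figure D5:**
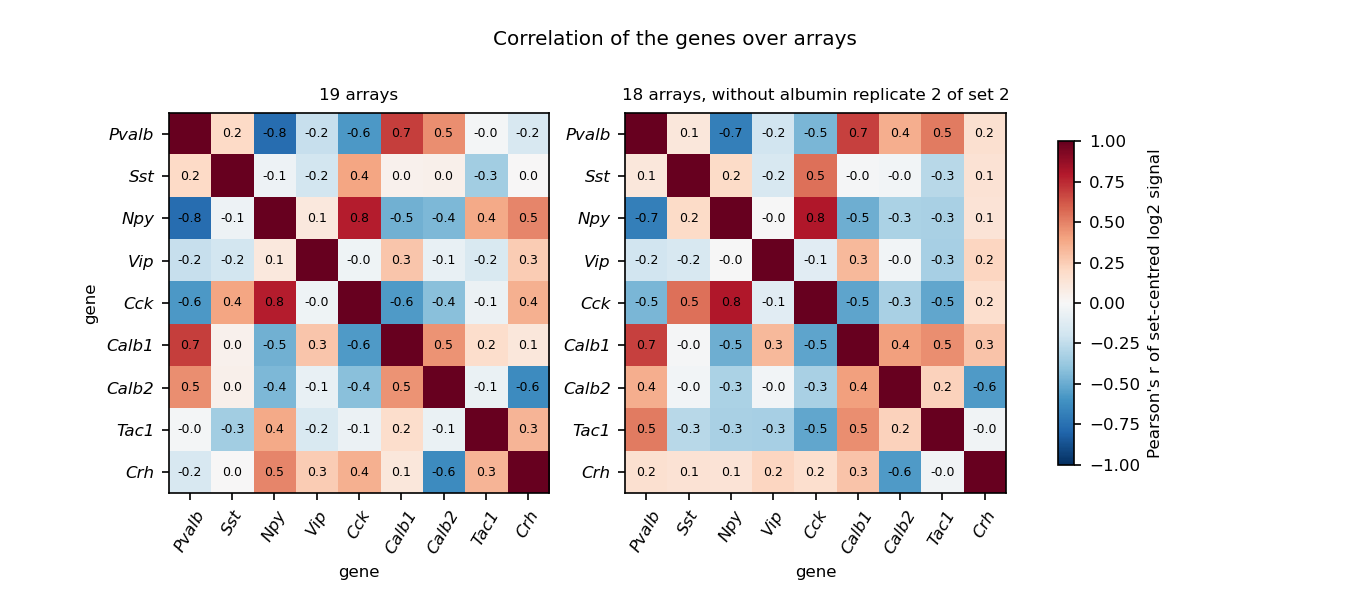
Pearson's r between the 9 genes over 19 arrays (left) and over the 18 arrays without albumin replicate 2 of set 2 (right), after the mean of each set was removed. Npy with Cck (0.79) and Pvalb with Calb1 (0.69) are the 2 highest pairs on the left, and Npy with Tac1 has −0.33 on the right and 0.38 on the left.

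Among the 9841 genes tested in both sets, those whose pattern over the 19 arrays was most like each of the 9 were none of the 9 themselves. For Pvalb they were Prodh (r = 0.94), the enzyme that starts the breakdown of proline, Phactr3 (0.88) and Cntnap2 (0.88), an adhesion protein of the axon. For Calb1 they were Slc2a13 (0.90), Tcap (0.87) and Rnase4 (0.86), and for Calb2 Rbm24 (0.87), Cdc26 (0.86) and Dnm1l (0.85). The values of Calb2 rest on low signals, at 2.82 to 3.19 in set 2, below the filter, and 3.64 to 4.64 in set 1. For Npy they were Pafah1b3 (0.92, and 0.80 without albumin replicate 2), Mylk (0.92) and Sprr1a (0.92), the last a gene known for induction in injured neurons. For Cck they were Dhps (0.94), Efhd2 (0.91) and Pfkp (0.89). Sst had the nearest genes Lzts2, Rundc3a and Ctbp1 (each 0.82), and Vip had Zfp780b (0.83), Ift52 (0.77) and Lenep (0.76). For Tac1 they were Rbm7 (0.91), Zfp189 (0.90) and Mreg (0.88), with 0.83, 0.82 and 0.86 without that array, and for Crh Alkbh5 (0.93), Ptprj (0.92) and Urb1 (0.91).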

How the data were processed

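Labelled cRNA of 19 samples was hybridised to Affymetrix arrays carrying the probe sets of Rat Genome 230 2.0. The deposited log2 values were made with GCRMA, which corrects background, normalises by quantiles and summarises probes, per the submitters' processing notes; its version is not given in the sources used here. Of 31099 probe sets, 20826 named 1 gene, 436 several and 9780 none, and 57 were controls. Symbols were updated to GRCr8 by Entrez identifier (20758 probe sets) or accession (2), and 66 kept the platform's symbol. A gene was represented by its probe set with the highest mean. Identical arrays numbered 0.

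Every comparison used limma 3.58.1 (lmFit and eBayes, R 4.3.3) and a two-sided moderated test. P-values were adjusted by Benjamini-Hochberg across the genes tested in a set, with 0.05 as the threshold, and the models were tested on simulated data. Set 2 was fitted with its 3 groups sharing 1 spread. Set 1 was fitted with agent and time, and the single sham was taken to vary as the treated arrays do. SE is the moderated standard error and SD that between arrays. Lists were described by counts and medians. Tables and plots used Python 3.11.15, pandas 2.3.3 and matplotlib 3.10.9. The named genes were the 9 members, the 3 genes most correlated with each, and list members past the threshold (or the smallest p in set 2 where none passed); any other gene was picked after its values were seen. The members and lists were chosen with earlier results of these data known. Alternatives changed the filter, probe set choice, normalisation, prior, arrays fitted and time term, and left out each array. For list genes and list medians these alternatives were chosen after seeing the data.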

Additional observations from a re-analysis of the deposited data

Results flagged for a closer look

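In the 4 arrays with albumin and the blockers, 2 of the 9 genes had an array far from the others, where chance flags about 1 group in 20. Sst had 11.11 on replicate 3 against 11.64 to 11.69 on the other 3, a gap of 0.91 of the group's range. Crh had 7.76 on replicate 4 against 7.22 to 7.28, a gap of 0.90 of the range. In set 1, Sst lay below the sham on all 3 DOC arrays and above it on all 3 albumin and all 3 TGF-β1 arrays, with means over the times 0.61 lower for DOC than for albumin and 0.64 lower than for TGF-β1. The DOC array at 24 h was below the sham by less than 0.01, each of these pairs was not tested by itself, and the F test over the 3 agents had an adjusted p of 0.274.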

How the results depend on the processing

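Of 625 member results under alternatives other than leaving out an array, 615 kept their direction and side of the threshold, as did 740 of 783 with 1 array left out. Groups of 2 to 4 arrays in set 2, and single arrays in set 1, limit every value. Deviations of same-numbered arrays of set 2 had correlations of −0.14 to 0.22 (3 of 7 over 0.1), beside −0.26 to 0.26 for other pairs (6 of 19 over 0.1). The deviations of the 2 shams mirror each other by construction, and these values do not settle whether arrays were paired. With the replicate block the counts of all genes past the threshold were 53 (albumin against sham), 0 (blockers against albumin) and 1 (blockers against sham), against 137, 2 and 0 without it, and it changed no call of a member but ended those of Pnoc (1.70, adjusted p = 0.0665) and Kcnip1 (−0.87, adjusted p = 0.135) for albumin against sham. Kcnip1 was also lost with the median of its probe sets (−0.37, adjusted p = 0.140), with no filter (adjusted p = 0.0689) and with 2 groups only (0.226). Of 9 alternatives other than leaving out an array, the Kcnip1 call passed in 5 and the Pnoc call in 4.

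Crh for albumin against sham in set 2 turned to −0.012 after quantile normalisation and −0.094 with all 19 arrays. Tac1 turned to −0.017 (blockers against sham) and −0.056 (TGF-β1 against sham) after quantile normalisation. With the sham as a 24 h array, Tac1 was −0.14 (DOC), −0.49 (albumin) and −0.49 (TGF-β1), and Crh 0.38 (DOC) and 0.019 (albumin). With 1 array left out, directions turned within −0.39 to 0.16 (Sst), −0.14 to 0.96 (Tac1) and −0.51 to 0.61 (Crh) for albumin against sham in set 2. They did within −0.92 to 0.0023 (Npy), −0.087 to 0.19 (Vip), −0.92 to 0.17 (Tac1) and −0.63 to 0.48 (Crh) for blockers against albumin. For blockers against sham the ranges were −0.074 to 0.038 (Pvalb), −0.23 to 0.31 (Sst), −0.066 to 0.14 (Tac1) and −0.15 to 0.030 (Crh). In set 1 they were −0.094 to 0.21 (Cck) and −0.69 to 0.34 (Crh) for DOC, −0.10 to 0.31 (Tac1) for albumin, and −0.14 to 0.012 (Pvalb) and −0.34 to 0.39 (Tac1) for TGF-β1. Over time they were −0.039 to 0.96 (Crh, 24 h against 7/8 h), −0.12 to 0.18 (Sst), −0.12 to 0.10 (Calb2) and −0.50 to 0.24 (Crh) at 48 h against 7/8 h, and −0.36 to 0.00024 (Sst), −0.032 to 0.31 (Vip) and −0.23 to 0.083 (Cck) at 48 h against 24 h.

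The count of members past the threshold became 1 with all 19 arrays for albumin against sham in set 2 (0 to 1 with an array left out), and ranged from 0 to 2 at 48 h against 7/8 h. Counts of all genes, by comparison, were as follows. For albumin against sham in set 2 they were 27 (no filter), 89 (arrays at one median), 4 (2 groups only), 798 (19 arrays) and 1 to 190 with an array left out. For blockers against albumin they were 1 (no filter), 0 (mean above 5, the trend and robust prior, or 2 groups only) and 0 to 28. For blockers against sham they were 2 (2 groups only) and 0 to 1. For DOC against sham they were 75 (no filter), 4 (median probe set), 14 (quantile), 31 (sham as 24 h), 3 (no time term) and 1 to 202. For albumin against sham in set 1 they were 14 (median probe set), 61 (arrays at one median, and the trend and robust prior), 62 (sham as 24 h), 2 (no time term) and 2 to 117. For TGF-β1 against sham they were 6 (no filter), 1 (mean above 5), 7 (trend and robust prior) and 0 to 5. For 24 h against 7/8 h they were 0 (no filter), 129 (trend and robust prior) and 1 to 126, for 48 h against 7/8 h 286 (no filter) and 167 to 573, and for 48 h against 24 h 57 (no filter), 50 (mean above 5) and 35 to 103. For the agents they were 2 (no filter, mean above 5, or the trend and robust prior) and 1 to 4. The causes were not tested. The other probe sets of a member could not be tried, since each had 1.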
